A study of Mus musculus with 8 samples.

Results

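The 47 genes described here belong to the mouse cell cycle. They are cyclins, cyclin-dependent kinases (CDKs), replication factors, mitotic genes, CDK inhibitors, and p53 pathway and arrest genes. They were chosen by symbol, with earlier results of these data known. All 47 were found among the 55487 gene identifiers of the deposited tables. RNA was sequenced from pancreatic beta cells, which make and secrete insulin, after flow sorting of dispersed islets. The 4 Chd4KO libraries came from mice with a beta cell deletion of Chd4 (named Chd4Db in the design text), and the 4 Control libraries from control mice, both given tamoxifen. Every library has its own animal number in the labels and was taken as a separate mouse. These numbers are higher for every Chd4KO than for every Control library, so genotype and the order of numbering cannot be told apart. The Cre driver, the marker used for sorting, and the age and sex of the mice are not given in the sources used here. Chd4 is the helicase that drives the NuRD chromatin remodelling complex.

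Cells enter the cycle when D-type cyclins with Cdk4 or Cdk6, and then cyclin E with Cdk2, phosphorylate the retinoblastoma protein and release E2F transcription factors. E2F factors then switch on the genes of DNA replication, and mitosis follows under cyclin A and B with Cdk1. The INK4 proteins (Cdkn2a to Cdkn2d) block Cdk4 and Cdk6, and the CIP/KIP proteins (Cdkn1a to Cdkn1c) bind cyclin and CDK complexes more broadly. Adult beta cells divide rarely. In mice their growth after birth depends on Cdk4 and cyclin D2, and menin, the product of Men1, restrains it by keeping CDK inhibitor genes active.

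Chd4KO libraries had more transcript of Plk5 and less of Cdkn2b than Control libraries, and the other 40 tested members did not pass the test. Plk5 encodes a polo-like kinase family member that in mice is linked to cell cycle arrest and neuronal differentiation, and Cdkn2b encodes the CDK inhibitor p15INK4b. Levels are given in TPM, transcripts scaled per exon length to a fixed total per library, so that levels of different genes can be compared. Differences between the groups are Chd4KO minus Control on the log2(TPM + 1) scale, with limma's standard error (SE), and a change was called where the adjusted p was under 0.05. Of the 47 members, 42 reached 1 TPM in at least 4 libraries and were tested. Of these, 1 rose and 1 fell, which is 4.76% of them. The member that rose, Plk5, met the filter through its Chd4KO values alone. Among all 15189 tested genes 2.97% were called, with 1.53% higher and 1.44% lower, so the share among members lay near the background. The 5 members below the filter were Cdk6, Cdk2, Cdc6, Cdc25c and Cdkn2a.

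Promoter sequences of 5 members are shown here. Plk5 and Cdkn2b are the members that passed the test, Cdc25b is the G2/M member with the highest difference, and Mcm6 and Ccnb2 stand for replication and mitotic genes. Each is the 250 bases before the RefSeq start on build GRCm38.p6, read 5′ to 3′ on the gene's strand. The windows lie at chr10:80356209-80356458 on the plus strand, chr4:89311033-89311282 on the minus strand, chr2:131186698-131186947 on the plus strand, chr1:128359706-128359955 on the minus strand and chr9:70421555-70421804 on the minus strand. Capitals mark matches on either strand to an E2F word (TTTCCCGC, TTTCGCGC, TTTGCCGC or TTTGGCGC), to a word of the cell cycle homology region, CHR (TTTGAA or TTCGAA), or to the CCAAT box (CCAAT).
Plk5: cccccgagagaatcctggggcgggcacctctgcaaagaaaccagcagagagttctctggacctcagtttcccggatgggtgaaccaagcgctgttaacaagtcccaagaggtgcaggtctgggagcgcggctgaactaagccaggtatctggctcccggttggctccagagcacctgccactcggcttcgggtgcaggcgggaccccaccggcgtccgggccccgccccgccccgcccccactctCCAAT
Cdkn2b: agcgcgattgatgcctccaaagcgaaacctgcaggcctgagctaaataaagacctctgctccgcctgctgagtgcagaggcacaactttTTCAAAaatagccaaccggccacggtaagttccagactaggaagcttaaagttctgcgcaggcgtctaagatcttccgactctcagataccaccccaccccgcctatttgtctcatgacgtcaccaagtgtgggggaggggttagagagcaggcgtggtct
Cdc25b: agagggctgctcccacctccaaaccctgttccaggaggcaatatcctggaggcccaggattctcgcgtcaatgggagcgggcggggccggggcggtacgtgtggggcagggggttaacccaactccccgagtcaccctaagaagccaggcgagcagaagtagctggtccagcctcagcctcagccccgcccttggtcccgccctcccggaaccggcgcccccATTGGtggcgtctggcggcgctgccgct
Mcm6: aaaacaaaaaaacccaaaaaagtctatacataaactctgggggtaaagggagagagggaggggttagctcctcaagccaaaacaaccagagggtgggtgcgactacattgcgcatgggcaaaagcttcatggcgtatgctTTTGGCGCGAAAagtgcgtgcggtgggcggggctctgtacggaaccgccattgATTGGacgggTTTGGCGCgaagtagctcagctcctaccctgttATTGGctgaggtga
Ccnb2: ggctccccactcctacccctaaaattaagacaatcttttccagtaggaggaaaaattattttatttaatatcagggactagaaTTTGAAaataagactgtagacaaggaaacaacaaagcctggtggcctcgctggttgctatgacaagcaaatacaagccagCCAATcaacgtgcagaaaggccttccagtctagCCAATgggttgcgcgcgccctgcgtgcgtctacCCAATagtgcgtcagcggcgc

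The Mcm6 window holds 3 E2F matches, 2 of which overlap, and 2 CCAAT boxes, and the Ccnb2 window holds 1 CHR word and 3 CCAAT boxes. The Plk5 and Cdc25b windows hold 1 CCAAT box each, and the Cdkn2b window holds 1 CHR word on the opposite strand. RefSeq windows were present for 39 of the 47 members. An E2F word occurred in 4 of 8 S-phase members (50.0%), 3 of 9 G1 members (33.3%) and 1 of 7 inhibitors (14.3%). It occurred in 1 of 11 G2/M members (9.09%) and none of the 4 p53 and arrest members (Trp53, Mdm2, Ccng1 and Plk5). Of all 27025 genes with a window, 2.16% held an E2F word. A CCAAT box occurred in 10 of 11 G2/M members (90.9%), 6 of 8 S-phase members (75.0%) and all 4 p53 and arrest members. It occurred in 4 of 9 G1 members (44.4%) and in 3 of 7 inhibitors (42.9%), against 37.5% of all genes. CHR words occurred in 5 of 11 G2/M members (45.5%), 2 of 8 S-phase members (25.0%) and 1 of 9 G1 members (11.1%). They occurred in 1 of 7 inhibitors (14.3%) and none of the 4 p53 and arrest members, against 19.6% of all genes. E2F words are classical sites of replication genes, and CCAAT boxes with CHR words are classical elements of mitotic promoters. These are matches of letters, and binding was not measured.

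Depth and the makeup of the libraries bear on genes at a few TPM. Reads in genes, recovered from TPM and exon length, numbered 14.9 to 20.2 M in Chd4KO and 16.4 to 41.0 M in Control libraries. Chd4 itself averaged 5.60 ± 2.40 TPM in Chd4KO and 13.2 ± 2.08 TPM in Control (SD, n = 4 each), 42.4% of the Control mean, and no Chd4KO library reached the lowest Control library (exact permutation p = 0.0286, two-sided, the smallest possible). Its difference of -1.18 ± 0.29 (SE) missed the threshold over all genes (limma adjusted p = 0.0725). Insulin transcripts took 62.0% of all TPM in Chd4KO replicate 4, against 32.4 to 46.98% in the other Chd4KO libraries and 38.1 to 41.8% in Control. The median difference of all tested genes was -0.25 and came to -0.05 without Chd4KO replicate 4, so differences relative to that median are also given. The 15 acinar markers summed to 35608 TPM in Chd4KO replicate 2, to 38.4 to 355 TPM in the other Chd4KO libraries and to 109 to 1436 TPM in Control. The 10 leukocyte markers summed to 66.2 to 92.7 TPM in Chd4KO and 25.6 to 38.9 TPM in Control, with 2 of 5 tested markers higher, Cd68 and Fcer1g. Ptprc, which defines leukocytes, did not exceed 0.831 TPM in any library. Fcer1g was called in 7 of 19 alternatives and Cd68 in 15 of 18. The 8 mesenchymal markers summed to 0.816 to 1.54 TPM in Chd4KO and 0.148 to 0.554 TPM in Control, all under 1 TPM in every library. The 8 endothelial markers summed to 6.41 to 9.60 TPM in Chd4KO and 5.61 to 6.11 TPM in Control, with none of 2 tested markers called. Both sums were higher in every Chd4KO library than in any Control library. Of the 10 beta cell markers, 2 fell, the transcription factor gene Mafa and the glucose transporter gene Slc2a2. Without overlap, 5 of the 10 were lower in Chd4KO, against 11.3% of all tested genes. The median difference of the 10 was -0.62, with 7 estimates below 0 and 3 above. Of 5 tested ductal markers 1 fell, Cftr. In bulk RNA, fewer cells of a type and less RNA per cell cannot be told apart, and the part of these other cells in the results below was not tested.

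**Figure D1:**
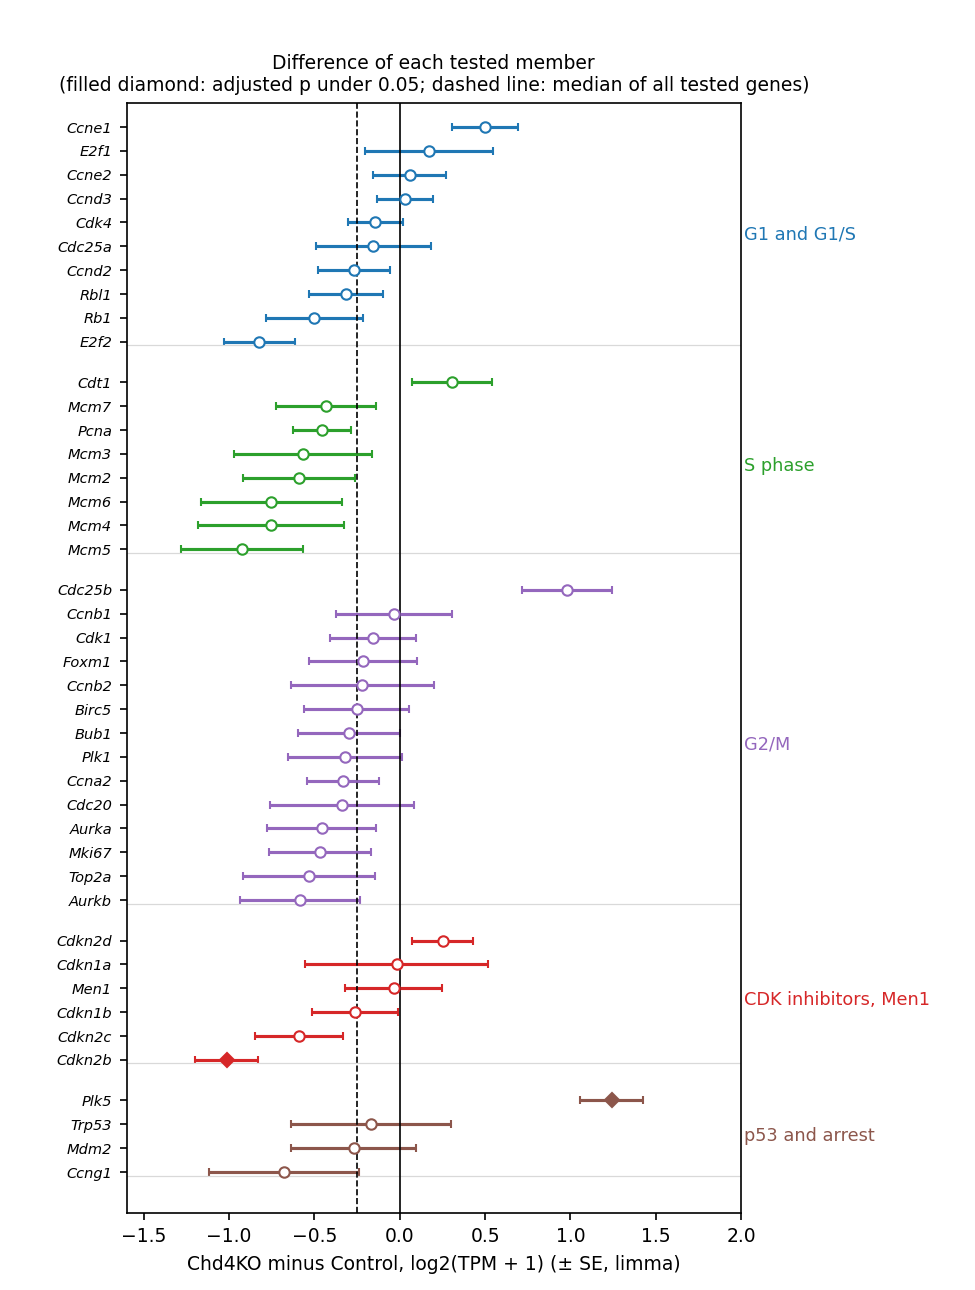
Difference of each of the 42 tested members, Chd4KO minus Control on the log2(TPM + 1) scale with its SE, grouped by role. Filled diamonds, at 1.24 for Plk5 and -1.02 for Cdkn2b, passed the test, and the dashed line is the median of all tested genes at -0.25.

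Among the genes of G1 and of entry into S phase, none of the 10 tested members passed the test. An unadjusted p under 0.05 was found for 2 of the 10, against 16.2% of all tested genes. Their median difference was -0.15, against -0.25 over all tested genes. Ccnd2, the cyclin D2 gene, and Cdk4 had the highest mean TPM of all members. Ccnd2 had 179.7, 166, 140.1 and 106 TPM in Chd4KO replicates 1 to 4 and 207, 170.3, 166 and 159 TPM in Control replicates 1 to 4. Chd4KO replicate 4 was the lowest and the groups overlapped. The Ccnd2 difference was -0.27 ± 0.21 (SE, limma adjusted p = 0.524), and -0.0134 beside the median of all tested genes. An antisense gene, Gm43126, overlaps Ccnd2 exons and averaged 247 TPM in Chd4KO and 299 TPM in Control. The libraries do not mark strand, so reads in the shared part cannot be told apart. The same holds for the other overlaps given below.

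Cdk4, the main partner of cyclin D2 in mouse beta cells, had 133, 131, 121 and 104 TPM in Chd4KO and 143, 129, 132 and 135 TPM in Control, a difference of -0.14 ± 0.16 (SE, limma adjusted p = 0.645). Cdk4 shares 19.7% of its exon bases with Tspan31 on the other strand, which averaged 150.8 TPM over all libraries. The related Cdk6 was barely read, with 22, 1, 3 and 7 reads in Chd4KO and 3, 7, 10 and 7 reads in Control, and was far below Cdk4 in TPM in all 8 libraries. Ccnd3 averaged 14.3 ± 1.41 TPM in Chd4KO and 14.0 ± 1.14 TPM in Control (SD, n = 4 each), far below Ccnd2 in every library. Cdk2, the cyclin E kinase, lay between 0.615 and 0.910 TPM in Chd4KO and between 0.590 and 1.08 TPM in Control, below the filter.

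Ccne1, which encodes cyclin E1, had 10.1, 8.35, 10.7 and 8.44 TPM in Chd4KO and 7.05, 4.58, 6.85 and 7.11 TPM in Control. All 4 Chd4KO libraries lay above all Control libraries. The difference was 0.50 ± 0.19 (SE) and did not pass the test (limma adjusted p = 0.249). Its paralog Ccne2 averaged 4.53 ± 1.56 TPM in Chd4KO and 4.18 ± 0.400 TPM in Control (SD, n = 4 each), and its groups overlapped. Ccne2 shares 17.4% of its exon bases with Ints8 on the other strand, which averaged 12.0 TPM over all libraries.

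E2f2, an activating E2F factor, had 1.58, 0.696, 1.48 and 0.709 TPM in Chd4KO and 3.12, 2.54, 2.81 and 2.26 TPM in Control. Every Chd4KO library was below every Control library, and the Chd4KO mean was 41.6% of the Control mean. The difference of -0.82 ± 0.21 (SE) did not pass the test (limma adjusted p = 0.0778). Over 18 alternative settings the adjusted p lay between 0.0380 and 0.220, and it passed in 2 of them, with array weights and with voom on recovered reads. E2f3, also an activating factor but not a member, was below the filter. It lay at 0.0155 to 1.12 TPM in Chd4KO and 0.345 to 0.650 TPM in Control. E2f1, the other activating member, had 46.4, 30.2, 49.4 and 13.6 TPM in Chd4KO and 23.2, 26.3, 33.5 and 28.7 TPM in Control. Its Chd4KO values lay on both sides of the Control range (0.17 ± 0.38, SE, limma adjusted p = 0.813). Cdc25a, the phosphatase that activates Cdk2, ranged from 2.85 to 11.7 TPM in Chd4KO and from 7.30 to 8.51 TPM in Control. The pocket proteins that hold E2F factors back overlapped between the groups, with Rb1 at 11.3 ± 4.58 and Rbl1 at 1.96 ± 0.591 TPM in Chd4KO, against 15.6 ± 2.10 and 2.67 ± 0.669 TPM in Control (SD, n = 4 each).

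**Figure D2:**
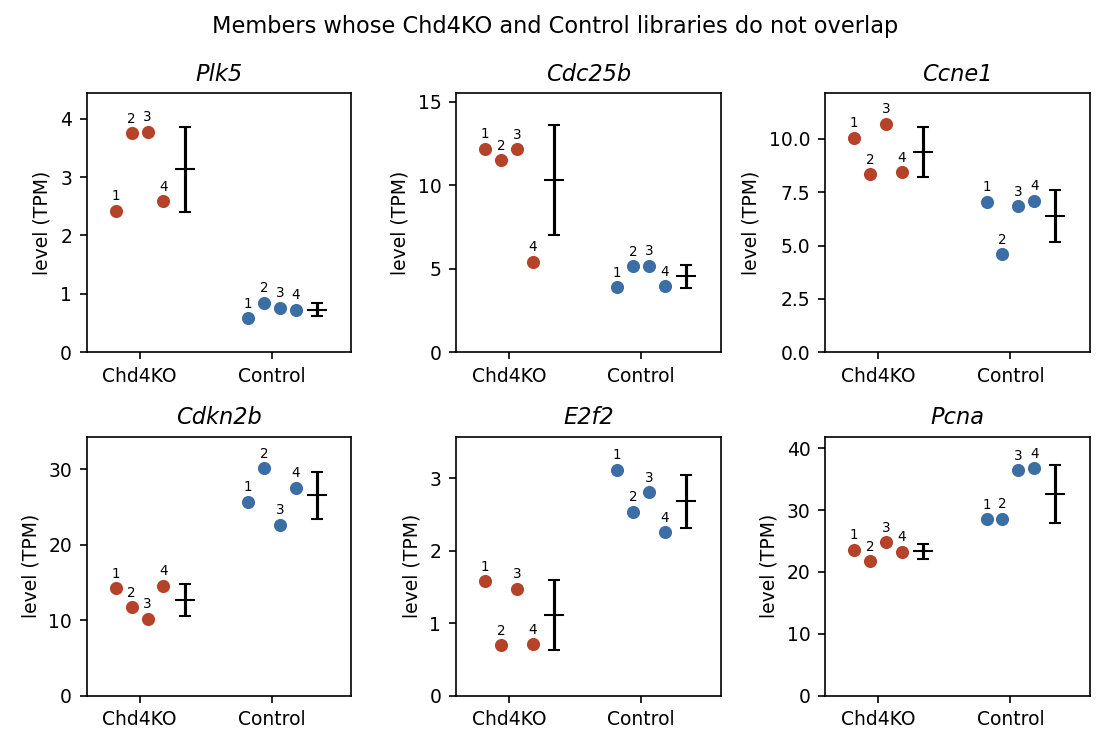
Levels in TPM of the 6 tested members whose 4 Chd4KO libraries (red, left) and 4 Control libraries (blue, right) do not overlap. Numbers are replicates and bars are mean ± SD. Plk5, Cdc25b and Ccne1 are higher in Chd4KO, and Cdkn2b, E2f2 and Pcna are lower, though only Plk5 and Cdkn2b passed the test.

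The groups did not overlap in these 6 of the 42 tested members, 3 higher and 3 lower in Chd4KO. Over all tested genes 14.8% did not overlap, with 3.54% higher and 11.3% lower, so the members' total lay near the background.

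None of the 8 tested S-phase members passed the test, and 2 had an unadjusted p under 0.05, against 16.2% of all tested genes. The median difference was -0.58, which is -0.32 relative to the median of all tested genes, and 7 of the 8 estimates were below that median. Pcna, the sliding clamp of DNA polymerase, had 23.6, 21.8, 24.8 and 23.2 TPM in Chd4KO and 28.5, 28.6, 36.4 and 36.8 TPM in Control. All Chd4KO libraries lay below all Control libraries, with a difference of -0.46 ± 0.17 (SE, limma adjusted p = 0.236). The Mcm genes encode the 6 subunits of the helicase that opens DNA for replication, and each of them had a lower mean in Chd4KO, between 49.5 and 74.9% of the Control mean. None passed, and the groups overlapped for all 6. Mcm5 had the largest difference of the 6. It had 5.70, 2.45, 4.65 and 1.33 TPM in Chd4KO and 7.21, 4.35, 8.28 and 8.69 TPM in Control. Chd4KO replicates 2 and 4 were the lowest, and the difference was -0.93 ± 0.36 (SE, limma adjusted p = 0.246).

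Mcm2 had 9.50, 3.93, 7.83 and 2.80 TPM in Chd4KO and 9.82, 6.90, 9.99 and 8.53 TPM in Control, a difference of -0.59 ± 0.33 (SE, limma adjusted p = 0.400). As for Mcm5, replicates 2 and 4 were the low Chd4KO libraries, and these are also the libraries with the acinar transcripts and with the high insulin share. The part of either in these values was not tested. Cdc6 and Cdt1 load the helicase onto DNA. Cdc6 was below the filter at 0.189 to 0.821 TPM in Chd4KO and 0.537 to 1.86 TPM in Control. Cdt1 averaged 2.42 ± 0.493 TPM in Chd4KO and 1.82 ± 0.699 TPM in Control (SD, n = 4 each; limma adjusted p = 0.510). Without Chd4KO replicates 2 and 4 the median difference of the S-phase members was -0.29, against -0.07 for all genes tested with all 8 libraries.

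The mitotic genes were transcribed at a few TPM in both groups, and none of the 14 tested G2/M members passed the test, with 1 at an unadjusted p under 0.05 (16.2% of all tested genes). Their median difference of -0.31 lay -0.05 from that of all tested genes. Without Chd4KO replicates 2 and 4 the median of the G2/M members was 0.06, against -0.07 for all genes tested with all 8 libraries. Mki67, the proliferation marker Ki-67, had 2.70, 0.563, 1.49 and 0.537 TPM in Chd4KO and 2.46, 1.53, 2.29 and 1.82 TPM in Control. Chd4KO replicate 1 was the highest of all 8 libraries and replicates 2 and 4 were the lowest, and the difference was -0.47 ± 0.30 (SE, limma adjusted p = 0.449). Mki67 thus varied more among Chd4KO than among Control libraries. Top2a, the topoisomerase that untangles chromosomes, followed the same order within Chd4KO, with 3.63, 0.989, 2.47 and 0.534 TPM, against 2.91, 1.38, 4.21 and 3.41 TPM in Control. Cdk1, the mitotic kinase, had 3.16, 1.35, 2.86 and 2.09 TPM in Chd4KO and 2.09, 1.91, 3.75 and 3.21 TPM in Control. Ccna2, its cyclin A partner, had 6.52, 5.55, 7.57 and 3.91 TPM in Chd4KO and 7.23, 6.60, 8.25 and 8.02 TPM in Control. The groups overlapped for Mki67, Top2a, Cdk1 and Ccna2. Ccna2 shares 12.5% of its exon bases with Exosc9 on the other strand, which averaged 10.2 TPM over all libraries.

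Cdc20, which starts chromosome separation by activating the anaphase-promoting complex, had the highest mean of the G2/M members over all 8 libraries, though Cdc25b was higher in the Chd4KO mean. It had 5.32, 3.86, 15.4 and 7.05 TPM in Chd4KO and 5.67, 6.73, 16.2 and 10.6 TPM in Control, with 1 high library in each group. The difference was -0.34 ± 0.42 (SE, limma adjusted p = 0.671). The 15 G2/M members summed to 55.7, 33.1, 77.4 and 33.7 TPM in Chd4KO replicates 1 to 4 and to 44.9, 40.2, 76.4 and 57.1 TPM in Control. Both groups thus held libraries above 70 TPM and libraries near 40 TPM or below, and the sums overlapped. The 9 S-phase members summed to 81.7, 59.6, 74.0 and 42.4 TPM in Chd4KO and to 93.0, 78.6, 106 and 97.8 TPM in Control, where Chd4KO replicate 1 alone exceeded the lowest Control library.

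**Figure D3:**
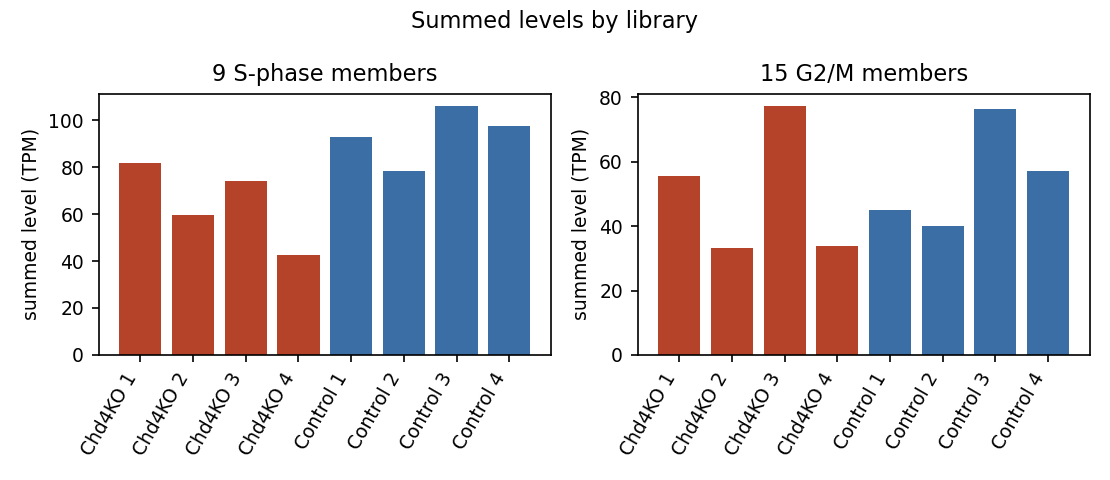
Summed TPM of the 9 S-phase members (left) and the 15 G2/M members (right) in each library, Chd4KO in red and Control in blue. S-phase sums are 42.4 to 81.7 TPM in Chd4KO and 78.6 to 106 TPM in Control. G2/M sums are 33.1 to 77.4 TPM in Chd4KO and 40.2 to 76.4 TPM in Control.

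Cdc25b, the phosphatase that activates Cdk1 complexes at the start of mitosis, stood apart from the other G2/M genes. It had 12.2, 11.5, 12.2 and 5.41 TPM in Chd4KO and 3.90, 5.14, 5.17 and 3.97 TPM in Control (mm10 chromosome 2, 131186949 to 131198497). All Chd4KO libraries lay above all Control libraries, replicate 4 by a small margin. The Chd4KO mean was 2.27 times the Control mean, and the difference of 0.98 ± 0.26 (SE) did not pass the test over all libraries (limma adjusted p = 0.0983). Beside the median of all tested genes it was 1.23. The adjusted p was 0.00383 with median-of-ratios scaling and 0.0031 without Chd4KO replicate 4, and Cdc25b passed in 7 of 19 alternatives. None of the 11 tested genes within 150 kb of it was called.

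Of the 6 tested members of the CDK inhibitor group, Men1 included, Cdkn2b fell and 5 did not pass. The estimates were below 0 for 5 of the 6, with 3 below and 3 above the median of all tested genes. Cdkn2b lies on mm10 chromosome 4 from 89306299 to 89311039, beside Cdkn2a at 89274471 to 89294653. It had 14.2, 11.7, 10.2 and 14.6 TPM in Chd4KO and 25.7, 30.1, 22.6 and 27.5 TPM in Control. The highest Chd4KO library lay well below the lowest Control library, and the Chd4KO mean of 12.7 ± 2.09 TPM was 47.8% of the Control mean of 26.5 ± 3.15 TPM (SD, n = 4 each). The values rest on 102 to 240 recovered reads per library in Chd4KO and 253 to 776 in Control. The difference was -1.02 ± 0.19 (SE, limma adjusted p = 0.0224), and -0.76 beside the median of all tested genes. The call held in 10 of 19 alternatives. The settings that ended it included median-of-ratios scaling (adjusted p = 0.210), quantile normalization (0.145), scaling without hormones and mitochondrial genes (0.0899), and leaving out any 1 Control library or Chd4KO replicate 3 (0.0595 to 0.103).

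Cdkn2a, which encodes p16INK4a and p19ARF, was barely read in any library, with 0, 0, 2 and 1 reads in Chd4KO and 1, 0, 1 and 0 reads in Control. A count of 0 allows up to 3 reads, which is 0.138 to 0.362 TPM for Cdkn2a depending on the library, for counting error only. Mtap, the single tested gene within 150 kb of Cdkn2b, had 7.75 ± 2.46 TPM in Chd4KO and 13.6 ± 0.976 TPM in Control (SD, n = 4 each; limma adjusted p = 0.136). Cdkn2c, the p18INK4c gene that menin activates in mouse endocrine cells, had 7.14, 5.69, 8.92 and 3.68 TPM in Chd4KO and 7.99, 9.10, 12.3 and 9.68 TPM in Control. The groups overlapped through Chd4KO replicate 3, and the difference was -0.59 ± 0.26 (SE, limma adjusted p = 0.304). Cdkn2d, the p19INK4d gene, had 33.5, 36.2, 27.7 and 27.5 TPM in Chd4KO and 23.1, 28.9, 27.9 and 24.1 TPM in Control. Its groups overlapped, and its difference was 0.25 ± 0.18 (SE, limma adjusted p = 0.485). In Chd4KO the INK4 order by TPM was Cdkn2d, Cdkn2b, Cdkn2c and Cdkn2a without overlap between neighbours, and in Control the ranges of Cdkn2d and Cdkn2b overlapped above Cdkn2c.

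Cdkn1a, the p21 gene and a classical p53 target, had 53.2, 112, 20.3 and 20.1 TPM in Chd4KO and 67.7, 37.3, 32.3 and 31.9 TPM in Control. The Chd4KO values lay on both sides of the Control range, with the highest in replicate 2 (-0.02 ± 0.54, SE, limma adjusted p = 0.987). Cdkn1a shares 7.68% of its exon bases with AC167363.2 on the other strand, which averaged 33.7 TPM over all libraries. Cdkn1b, the p27 gene, had 4.79, 5.07, 4.84 and 2.06 TPM in Chd4KO and 5.83, 5.37, 4.27 and 4.67 TPM in Control, and was lowest in Chd4KO replicate 4 (-0.26 ± 0.25, SE, limma adjusted p = 0.588). Men1 had 79.7, 49.4, 59.6 and 30.4 TPM in Chd4KO and 62.7, 51.0, 52.6 and 47.2 TPM in Control, with Chd4KO on both sides of the Control range (-0.04 ± 0.28, SE, limma adjusted p = 0.950).

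The third CIP/KIP gene, Cdkn1c, is not a member but belongs to the other inhibitor and regulator genes examined. Of 7 tested, 1 rose and none fell, against 1.53% higher and 1.44% lower of all tested genes. An unadjusted p under 0.05 was found for 4 of the 7, against 16.2% of all tested genes. The estimates were below 0 for 6 of the 7, and 5 were below the median of all tested genes. Cdkn1c encodes p57, is imprinted and is known as a brake on beta cell proliferation. It had 2.57, 4.58, 3.26 and 4.55 TPM in Chd4KO and 0.831, 1.19, 0.753 and 0.338 TPM in Control. The groups did not overlap, as for the 3.54% of all tested genes that were higher without overlap. The Chd4KO mean was 4.81 times the Control mean (difference 1.41 ± 0.23, SE, limma adjusted p = 0.0132). Of the Control libraries only replicate 2 reached 1 TPM, so Cdkn1c met the filter through its Chd4KO values. Its limma adjusted p was 0.0222 with no filter. The call held in 16 of 18 alternatives and was lost without Control replicate 3 (adjusted p = 0.053) or Control replicate 4 (0.0591).

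**Figure D4:**
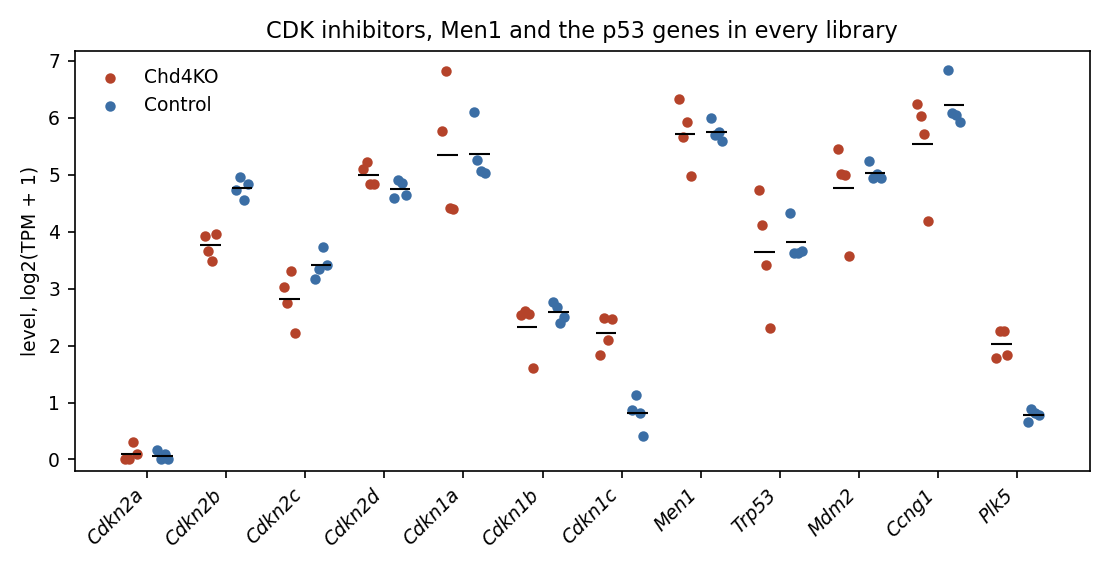
Levels on the log2(TPM + 1) scale of the CDK inhibitors, Men1 and the p53 and arrest genes. Each Chd4KO library is red (left of each pair), each Control library is blue (right), and bars are group means. Cdkn2b is lower in Chd4KO, Cdkn1c and Plk5 are higher, and Cdkn2a is near 0 in all 8 libraries.

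Plk5 was the single member called in each of the 18 alternatives that tested it, with adjusted p between 0.000337 and 0.0498. It lies on mm10 chromosome 10 from 80356459 to 80365489. Plk5 had 2.42, 3.75, 3.78 and 2.58 TPM in Chd4KO and 0.580, 0.846, 0.764 and 0.725 TPM in Control. The groups were far apart, at means of 3.13 ± 0.731 TPM in Chd4KO and 0.729 ± 0.111 TPM in Control (SD, n = 4 each), 4.30 times the Control mean. Recovered reads numbered 47, 71, 73 and 82 in Chd4KO and 11, 42, 24 and 31 in Control. The difference was 1.24 ± 0.19 (SE, limma adjusted p = 0.00881). As none of the Control libraries reached 1 TPM, Plk5 was tested on the strength of its Chd4KO values, and its adjusted p was 0.00724 with no filter. Among 15 tested genes within 150 kb, 1 was called. That gene, Adamtsl5, which encodes a secreted matrix protein and starts 8.05 kb upstream of the start of Plk5, had 4.32, 1.29, 4.11 and 1.86 TPM in Chd4KO and 0.149, 0.183, 0.181 and 0.106 TPM in Control (1.66 ± 0.29, SE, limma adjusted p = 0.0174). Like Plk5, Adamtsl5 passed the filter on low values through Chd4KO alone, and its adjusted p was 0.0407 with no filter. It was named after its values were seen, and its call was lost without any 1 Control library or without Chd4KO replicate 3 (adjusted p = 0.0588 to 0.0736).

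Trp53, Mdm2 and Ccng1, the p53 pathway genes listed with Plk5 in the p53 and arrest group, did not pass. Trp53, the p53 gene, had 25.6, 16.3, 9.66 and 3.97 TPM in Chd4KO and 19.1, 11.4, 11.4 and 11.6 TPM in Control, so Chd4KO spread to both sides of Control (-0.17 ± 0.47, SE, limma adjusted p = 0.855). Mdm2, the ubiquitin ligase that degrades p53 and is also its target, had 42.8, 31.3, 31.0 and 10.9 TPM in Chd4KO and 36.7, 29.8, 31.1 and 29.6 TPM in Control (-0.27 ± 0.37, SE, limma adjusted p = 0.695). Ccng1, a p53 target of the cyclin family, had 74.4, 64.6, 51.3 and 17.1 TPM in Chd4KO and 113, 66.9, 64.8 and 59.4 TPM in Control (-0.68 ± 0.44, SE, limma adjusted p = 0.456). Chd4KO replicate 4 was the lowest library for all 3 genes. Of 17 further genes tested from a list of p53 targets, none was called. An unadjusted p under 0.05 was found for 3 of them, near the 16.2% of all tested genes. The most abundant were Gadd45g at 503 ± 166 TPM in Chd4KO and 836 ± 248 TPM in Control, and Btg2 at 349.7 ± 289.6 TPM in Chd4KO and 868 ± 402 TPM in Control (SD, n = 4 each; limma adjusted p = 0.311 and 0.276).

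Ratios between related members within a library do not depend on how the library was scaled, and 11 such ratios were formed after the values were known. Chd4KO and Control did not overlap in 4 of them. The numerators of these 4, Cdkn2b, Cdc25b, E2f2 and Plk5, were already known not to overlap between the groups. The count is therefore not separate evidence, and no share over ratios of other genes was formed. Cdkn2b over Cdkn2d was 0.424, 0.324, 0.367 and 0.530 in Chd4KO and 1.11, 1.04, 0.811 and 1.14 in Control, so Cdkn2b was below its paralog in every Chd4KO library. Cdc25b over Cdc25a was 1.04 to 1.90 in Chd4KO and 0.490 to 0.704 in Control, with Cdc25b the higher of the pair in every Chd4KO library and the lower in every Control library. E2f2 over E2f1 was 0.0230 to 0.0521 in Chd4KO and 0.0786 to 0.135 in Control. Plk5 over Plk1, the mitotic polo-like kinase, was 0.740 to 1.82 in Chd4KO and 0.119 to 0.314 in Control. The ratios of Ccnd2 to Ccnd3, Ccne1 to Ccne2 and Ccnb1 to Ccnb2 overlapped. These ratios restate the levels given above for each pair of genes, and no test was run on them.

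**Figure D5:**
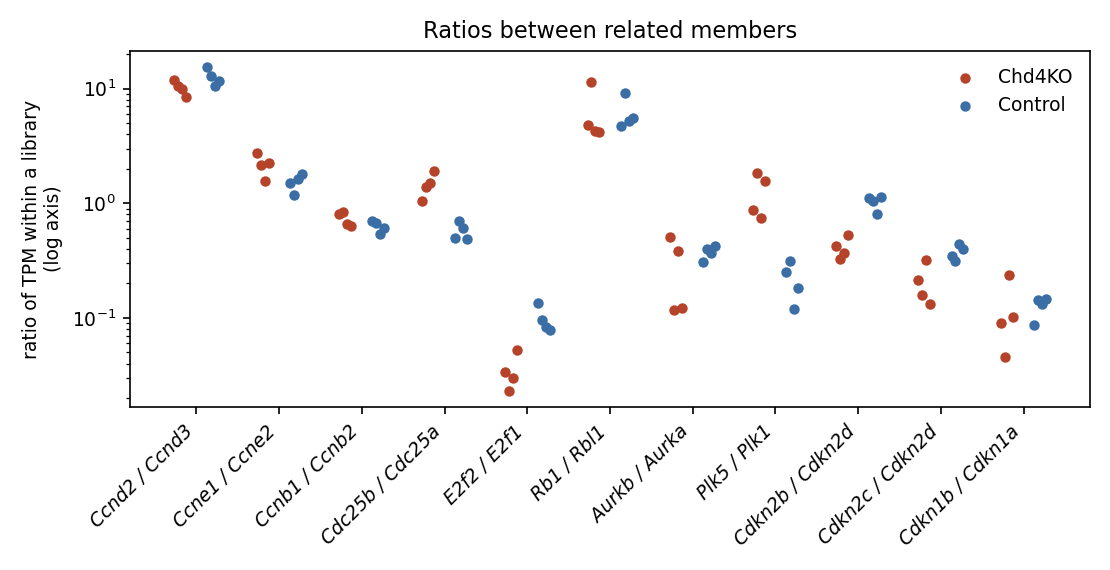
Ratio of TPM between related members within each library on a log axis, Chd4KO in red (left of each pair) and Control in blue (right). The Cdc25b to Cdc25a, E2f2 to E2f1, Plk5 to Plk1 and Cdkn2b to Cdkn2d ratios do not overlap between the groups.

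Other genes of the cycle machinery were examined from lists by role. Over all 5 lists, 102 of 124 genes were tested, 1 rose and 1 fell, which is 1.96% against the 2.97% of all tested genes. Of 20 tested genes of G1, none was called, with Ccni at 58.7 ± 31.5 TPM in Chd4KO and 62.4 ± 6.27 TPM in Control and Cks1b at 46.8 ± 11.7 TPM in Chd4KO and 47.4 ± 6.62 TPM in Control (SD, n = 4 each). Of 32 tested replication genes none was called. Without overlap, 7 of the 32 were lower in Chd4KO and 0 higher, against 11.3% lower and 3.54% higher of all tested genes. An unadjusted p under 0.05 was found for 6 of the 32, against 16.2% of all tested genes. Among the replication genes, Rpa1, which coats single-stranded DNA, was at 26.4 ± 5.25 TPM in Chd4KO and 36.6 ± 4.34 TPM in Control (limma adjusted p = 0.292). Rfc5, a clamp loader subunit, was at 35.9 ± 4.24 TPM in Chd4KO and 34.6 ± 1.52 TPM in Control (limma adjusted p = 0.894). Of 26 tested mitotic genes, Anapc11 fell and 25 did not pass. Anapc11 encodes the RING subunit of the anaphase-promoting complex and had 2.29, 2.52, 2.99 and 3.36 TPM in Chd4KO, against 7.15, 6.17, 5.82 and 6.39 TPM in Control. The groups lay well apart (-0.97 ± 0.17, SE, limma adjusted p = 0.0185). That call held in 10 of 19 alternatives. The settings that ended it included each of the 3 other scalings (adjusted p = 0.0838 to 0.251) and leaving out any 1 Control library or Chd4KO replicate 3 (0.0623 to 0.0893).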

How the data were processed

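For every library the authors deposited TPM values by Ensembl gene, without counts. HISAT2, HTSeq, Trimmomatic, FastQC and DESeq2, with build mm10, are listed per the submitters' processing notes, without versions or roles. Their gene annotation is not stated there. Per the labels' protocols, cDNA came from a low-input SMART-Seq kit and libraries from a Nextera XT kit, which do not mark strand. Symbols, positions and exon lengths came from GENCODE M21 on the same build, which held 99.5% of the identifiers.

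Genes with at least 1 TPM in at least 4 libraries were tested with limma 3.58.1 (R 4.3.3), fitted to log2(TPM + 1) with a single term for genotype, two-sided, with Benjamini-Hochberg adjustment over all 15189 tested genes. This scale understates changes of genes at low TPM. Fits that left out libraries asked for 1 TPM in as many libraries as the smaller group held. TPM multiplied by exon length gave whole reads, within 0.05 of a read, for 98.5 to 98.7% of values above 0. These reads served for depth and for an alternative test with voom. The script was tested on simulated data. The 47 members and all gene lists were chosen with earlier results of these data known. The genes given in every library are those called, the most abundant tested member of each role, the inhibitors and the p53 and arrest genes. A fixed set of 8 cell cycle genes and those without overlap between groups are also given. Of the other lists, the called genes or the 2 most abundant are named.

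Alternatives changed the pseudocount, the filter, the scaling, the variance model, sample weights and the libraries used. The replicate numbers are shared by the groups, but same-numbered libraries come from different mice, and their deviations correlated at -0.0244, 0.425, 0.0773 and 0.0377, so they were not treated as pairs. Promoters came from RefSeq on GRCm38.p6. Summaries used pandas 2.3.3 and scipy 1.17.1 under Python 3.11.15.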

Additional observations from a re-analysis of the deposited data

Results flagged for a closer look

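A library lay far from the 3 others of its group, by the gap to its nearest neighbour relative to the range of the group, in 10 of 84 sets of 4 libraries examined (42 tested members in each group). For independent sets chance gives about 1 in 20, or 4.2 of 84. The sets share the same 8 libraries, so no excess is read from the 10 flagged. In Chd4KO these were Cdc25b at 5.41 TPM in replicate 4 (others 11.5 to 12.2 TPM), Cdkn1b at 2.06 TPM in replicate 4 (others 4.79 to 5.07 TPM), Ccne2 at 6.86 TPM in replicate 3 (others 3.63 to 3.85 TPM) and Aurka at 7.50 TPM in replicate 3 (others 2.46 to 3.30 TPM). In Control replicate 1 they were Trp53 at 19.1 TPM (others 11.4 to 11.6 TPM), Cdkn1a at 67.7 TPM (others 31.9 to 37.3 TPM) and Ccng1 at 113 TPM (others 59.4 to 66.9 TPM). The remaining Control values were Ccne1 at 4.58 TPM in replicate 2 (others 6.85 to 7.11 TPM), Mcm3 at 2.69 TPM in replicate 2 (others 6.16 to 6.73 TPM) and Ccnd3 at 15.6 TPM in replicate 3 (others 13.2 to 13.6 TPM).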

How the results depend on the processing

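Of 675 values of 36 single genes under 19 alternatives, 574 kept their direction and their side of the threshold, and 49 values of 15 genes changed sign, none of them past the threshold. The call of Plk5 held in all 18 alternatives that tested it, and a minimum of 5 TPM left it untested. The members called numbered 2, against 1 at a minimum of 5 TPM, 4 with array weights and 4 with voom on recovered reads, and 1 to 3 when each library was left out in turn. Under median-of-ratios, quantile and hormone-free scaling they were Plk5 and Cdc25b in place of Plk5 and Cdkn2b. Over all genes 451 were called (233 higher, 218 lower), against 220 at a minimum of 5 TPM, 724 with median-of-ratios scaling (444 higher, 280 lower), 755 with quantile normalization (466 higher, 289 lower), 1364 with array weights (578 higher, 786 lower), 833 without Chd4KO replicates 2 and 4 (469 higher, 364 lower), and 171 to 866 when each library was left out. Other pathway genes called numbered 2, against 1 at a minimum of 5 TPM, 4 with median-of-ratios scaling, 4 with quantile normalization, 7 with array weights, 4 with voom, and 0 to 4 when each library was left out. Chd4 passed the threshold at -0.94 with median-of-ratios scaling, -1.11 without hormones and mitochondrial genes, -0.90 with quantile normalization, -0.97 with array weights and -1.23 with voom, and ranged from -1.37 to -0.91 over the fits without 1 library. With the replicate block, 274 genes were called (158 higher, 116 lower), with 1 member (Plk5) and 1 other pathway gene (Cdkn1c). Cdkn2b (adjusted p = 0.0708), Anapc11 (0.0872), Cd68 (0.0631) and Fcer1g (0.0555) lost their calls in that fit, and 2 of the 8 libraries correlated best with the library of their own number in the other group.

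These differences changed sign, all short of the threshold. With median-of-ratios scaling they were Cdkn1a 0.26, Men1 0.25, Trp53 0.0797, Mdm2 0.00153, Cdk1 0.0557, Ccnd2 0.0205, Cdk4 0.14 and Cks1b 0.24. Quantile normalization gave Cdkn1a 0.18, Cdkn1b 0.00332, Men1 0.14, Trp53 0.11, Cdk1 0.0921 and Cks1b 0.12. Scaling without hormones and mitochondrial genes gave Cdkn1a 0.13, Men1 0.12, Cdk4 0.0134 and Cks1b 0.11. Array weights gave Cdkn1b 0.00672, Men1 0.22, Trp53 0.0629, Mdm2 0.054 and Cks1b 0.0356, and voom gave Cdkn1a 0.0935, Men1 0.0759 and Cks1b 0.0788. Without Chd4KO replicates 2 and 4 they were Men1 0.37, Trp53 0.26, Mdm2 0.19, Mki67 0.015, Top2a 0.0677, Cdk1 0.13, Cdc20 0.0135 and Cks1b 0.15. Over the fits without 1 library, Cdkn1a ranged from -0.51 to 0.30, Men1 from -0.24 to 0.21, Trp53 from -0.53 to 0.28, Mdm2 from -0.50 to 0.12, Cdk1 from -0.27 to 0.0046, E2f1 from -0.0436 to 0.55, Ccni from -0.56 to 0.16, Cks1b from -0.16 to 0.14 and Rfc5 from -0.00357 to 0.13. The causes were not tested. Members at a few TPM rest on few reads, with 40 to 293 for Mki67, which limits their precision.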
